A study of Mus musculus with 8 samples.

Results

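The 10 genes described here are the bone morphogenetic protein (BMP) ligands Bmp2, Bmp4 and Bmp7, the receptors Bmpr1a and Bmpr2, the secreted antagonists Sostdc1 and Nog, and the inhibitor of DNA binding genes Id1, Id2 and Id3. They were taken as every probe set, on both array types used, whose platform annotation names 1 of these genes and no other. This gave 22 probe sets, 12 of the 12488 on the A chip and 10 of the 12477 on the B chip, a second array type with different probe sets. Whole skin of p63 null mouse embryos was compared with whole skin of wild-type embryos, all at E18.5 (late gestation) and from crosses of p63 heterozygous mice, with 2 embryos per genotype and chip. The labels name no tissue-restricted deletion, so p63 is taken as missing from the whole embryo, and whole skin mixes epidermis with dermis and the tissue beneath. The sources used here do not give the allele, the strain or the sex of the embryos, and the wild-type embryos carry no stated alteration.

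BMPs are secreted proteins that bind paired type I and type II receptors, which phosphorylate Smad proteins that enter the nucleus and switch on targets, among them the Id genes. Id proteins have a helix-loop-helix but no basic region, so they pair with other helix-loop-helix factors, such as the E proteins, and keep them off DNA. In skin, BMP signals act in the epidermis and in the hair follicle, where antagonists such as noggin allow follicles to form and later BMP signalling is needed for hair shaft differentiation. Mice without p63, a transcription factor encoded by Trp63, are known for failing to form a stratified epidermis and its appendages.

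The values are microarray signals, 1 per probe set and array, on a linear scale. On the A chip Trp63 read 61.9 and 46.6 in null arrays against 379.3 and 347.1 in wild-type arrays, with the site of its probes relative to the altered part of the gene unknown here. The skin label was borne out in wild type by the epidermal markers: the 10 on the A chip summed to 3493 and 3929 in null arrays and to 30642 and 29587 in wild-type arrays, and 7 of 7 tested were lower in the null. The probe sets of Krt5, Krt14 and Krt15 on that chip were at or under 15.9 in all arrays, whereas Krt15 on the B chip read 842.1 and 784.0 in null arrays against 10544 and 12121 in wild-type arrays. Of the other markers on the A chip, 4 of 5 tested hair follicle epithelium genes were lower, while 7 of 7 leukocyte, 8 of 8 skeletal muscle, 5 of 7 endothelial, 4 of 5 adipocyte and 3 of 8 dermal fibroblast genes were higher. The ratio of 3' to 5' beta-actin signal, which rises as RNA degrades, was 1.27 to 1.36 over the 4 null arrays of both chips and 1.5 to 1.98 over the 4 wild-type arrays. The second null array of each chip read highest for the CreX spike, a transcript added to each sample, at 6420 and 32512 against at most 3837 and 18942 in the other arrays. How far cell makeup or RNA quality enters the results that follow was not tested.

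In null skin 7 of the 10 genes were lower by at least 1 probe set, all 3 ligands, Bmpr1a, Sostdc1, Id1 and Id3. Genes with more probe sets had more chances of a call, and Bmp2, Bmpr1a and Bmpr2 had 4 each. The share of all genes lower by this rule was not counted, so the 7 of 10 has no like background here. Bmpr2, Nog and Id2 had no call, and 0 of the 10 genes were higher. The test was limma's linear model on log2(signal + offset), run over all probe sets of a chip above a level for testing, with Benjamini-Hochberg adjusted p under 0.05 as a call. At an unadjusted limma p under 0.05, 6 tested probe sets were lower on each chip and 0 higher. By the calls, 5 of 8 tested on the A chip and 6 of 9 on the B chip were lower, and 0 were higher on either chip. With 1 array left out, 5 or 6 were lower on the A chip and 4 to 7 on the B chip, the 4 being without wild-type replicate 2 and the 7 without null replicate 1. With no filter or no variance trend 5 were lower on the B chip. Over all tested probe sets 22.2% were lower and 22.1% higher on the A chip, and 14.9% lower and 14.5% higher on the B chip. The genotypes did not overlap in 6 of the 8 and 7 of the 9, against 73.9% and 67.7% of all tested probe sets. The median log2 fold change, null minus wild type, was -0.96 for the 8 on the A chip and -0.68 for the 9 on the B chip, against 0.02 and 0.04 over all tested probe sets. Probe sets of the same gene count apart in these counts and medians. Bmpr1a gave 3 of the 6 lower on the B chip, and Bmp4 gave 2 of the 5 on the A chip. The other 5 probe sets, 3 of Bmp2 and 1 of Bmpr2 on the A chip and 1 of Bmp4 on the B chip, were too dim to be tested. A gene can reach the level for testing through 1 genotype alone, so these counts describe only the probe sets tested. In whole skin, fewer cells of a type and less RNA per cell cannot be told apart. The labels do not say that a number marks the same embryo on both chips, so the chips are no independent repeat of each other.

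**Figure D1:**
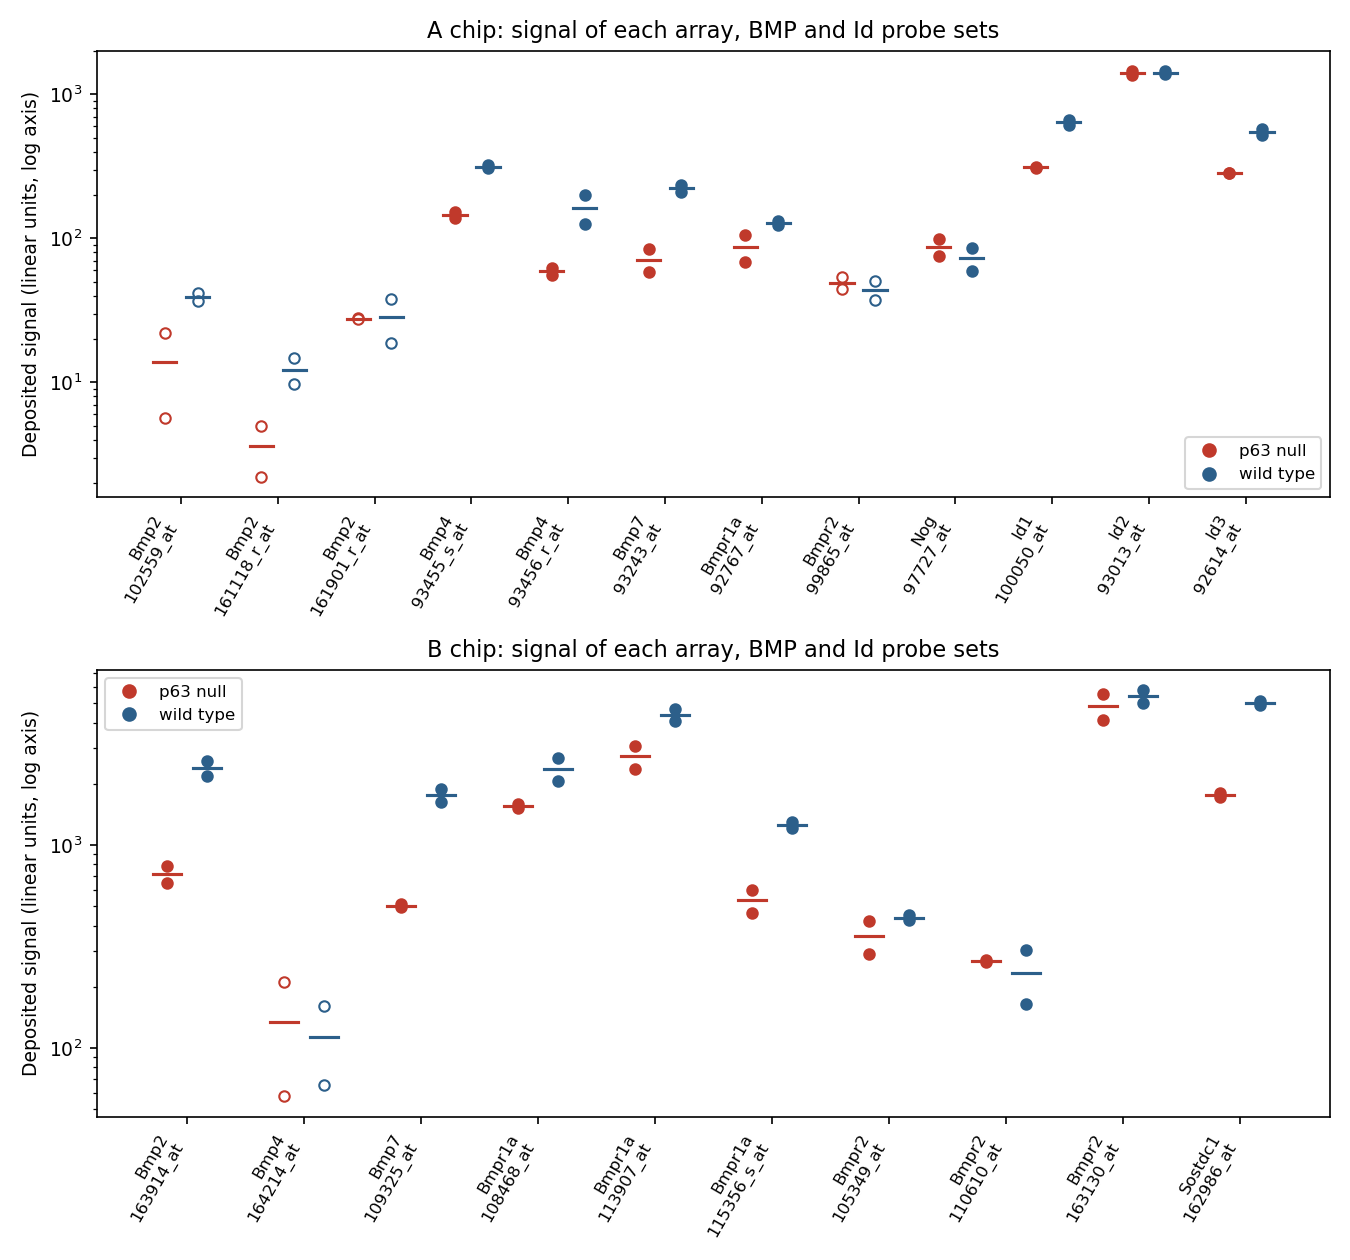
Signal of every array (points, log axis) and genotype mean (bars) for the 22 probe sets, null left of wild type, with open points for the 5 probe sets that were not tested. The null arrays lie below the wild-type arrays in 15 probe sets, overlap with them in 7 and lie above them in 0. The 15 include the Bmp2 probe sets 102559_at and 161118_r_at, which were not tested. Among all tested probe sets, 73.9% (A chip) and 67.7% (B chip) show no overlap, in either direction. The share with null below wild type was not counted.

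All 3 ligands were lower in null skin. The mean null signal was 0.301 of the wild-type mean for Bmp2, 0.318 and 0.285 for the Bmp7 probe sets, and 0.463 and 0.365 for those tested of Bmp4. Bmp2 (probe set 163914_at, B chip) read 651.6 and 787.4 in null arrays against 2589.2 and 2185.3 in wild-type arrays. Both null arrays lay far below both wild-type arrays, and the log2 fold change was -1.66 (SE 0.16, limma adjusted p = 0.000376). On the A chip, Bmp2 probe set 102559_at read 5.7 and 22.2 in null arrays and 41.5 and 36.9 in wild-type arrays, and 161118_r_at read 5.0 and 2.2 against 14.7 and 9.8. These lay below wild type too, but under the level for testing, and in a fit with no such level they did not pass (limma adjusted p = 0.0765 and 0.0602). The last Bmp2 probe set, 161901_r_at, overlapped between genotypes, at 27.8 and 27.7 in null arrays and 38.2 and 18.9 in wild-type arrays.

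Bmp7, a ligand made by many epithelia, was measured on both chips. On the A chip (93243_at) it read 58.4 and 83.7 in null arrays against 236.3 and 210.2 in wild-type arrays, a log2 fold change of -1.51 (SE 0.20, limma adjusted p = 0.000378). On the B chip (109325_at) it read 493.6 and 508.9 in null arrays against 1883.0 and 1630.8 in wild-type arrays, a log2 fold change of -1.70 (SE 0.14, limma adjusted p = 0.000242). The genotypes were well apart on both chips.

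Bmp4, which in skin is made in the mesenchyme under the placode and in follicle cells, fell by both tested probe sets. Both are of the kinds, ending in _s_at or _r_at, that can bind other transcripts. Probe set 93455_s_at read 137.9 and 152.5 in null arrays against 306.6 and 321.3 in wild-type arrays (log2 fold change -1.05, SE 0.15, limma adjusted p = 0.000541). The wild-type arrays of 93456_r_at differed more from each other, 126.0 and 198.9, and its null arrays read 56.0 and 62.7 (log2 fold change -1.25, SE 0.23, limma adjusted p = 0.00250). The B-chip probe set 164214_at, not tested, was scattered within both genotypes, at 57.7 and 209.7 in null arrays and 65.8 and 160.1 in wild-type arrays. In the fit with no filter it had a log2 fold change of 0.10 (limma adjusted p = 0.922). The RefSeq promoter window of Bmp4 (250 bases before to 50 after the gene's start, GRCm38.p6, chr14:46390620-46390919, minus strand, shown 5′ to 3′) is printed below. Of the genes that were lower, only Bmp4, Bmpr1a and Id3 had a window, and those of Bmpr1a and Id3 follow at their results. Capitals mark matches to 3 motifs searched on both strands. The first, GGCGCC, is a run of letters known from Smad binding in BMP responses. The second is the Smad box, spelled CAGAC and matched on the other strand by its reverse complement. The third is the E-box, spelled CANNTG, to which E proteins bind.
Bmp4: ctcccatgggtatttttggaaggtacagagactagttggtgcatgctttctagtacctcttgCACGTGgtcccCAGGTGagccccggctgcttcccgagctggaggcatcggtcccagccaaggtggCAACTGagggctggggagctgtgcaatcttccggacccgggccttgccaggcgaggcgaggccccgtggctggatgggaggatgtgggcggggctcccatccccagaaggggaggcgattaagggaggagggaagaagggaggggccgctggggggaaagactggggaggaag
The Bmp4 window holds 3 E-boxes, none overlapping another match, and neither Smad motif. An E-box occurs in 72.3% of the 32851 windows of the same length in the table, CAGAC in 49.6% and GGCGCC in 11.9%.

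Of the receptors, Bmpr1a was lower and Bmpr2 had no call. Bmpr1a, a type I receptor that epidermis and hair follicles are known to need, was read by 4 probe sets, and the null arrays lay below the wild-type arrays in all 4. Probe set 115356_s_at read 599.6 and 463.7 in null arrays against 1213.3 and 1288.8 in wild-type arrays, with a log2 fold change of -1.16 (SE 0.17, limma adjusted p = 0.00253). This largest change came from a probe set of the _s_at kind, which can bind other transcripts. Probe set 113907_at read 3076.5 and 2368.2 in null arrays against 4062.1 and 4658.4 in wild-type arrays, with a log2 fold change of -0.68 (SE 0.16, limma adjusted p = 0.0174). Here the genotypes were closer, and without wild-type replicate 2 the call was lost (-0.58, limma adjusted p = 0.105). For 108468_at the null arrays read 1582.1 and 1510.6 and the wild-type arrays 2065.5 and 2672.1, a log2 fold change of -0.59 (SE 0.15, limma adjusted p = 0.0265). That call ended without wild-type replicate 2 (limma adjusted p = 0.211), with no filter (0.0515) and with no variance trend (0.0607). The A-chip probe set 92767_at, at 104.8 and 68.6 in null arrays and 122.9 and 131.5 in wild-type arrays, did not pass (-0.52, 95% interval -1.01 to -0.02, limma adjusted p = 0.0853), but passed without null replicate 1 (-0.78, limma adjusted p = 0.0151). The probe sets thus differed in size of change, from -0.52 to -1.16, and which transcripts each one reads is unknown here.

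Bmpr2, the type II receptor, overlapped between genotypes in 3 of its 4 probe sets. Probe set 163130_at read 5547.0 and 4113.1 in null arrays and 5013.9 and 5773.6 in wild-type arrays, a log2 fold change of -0.17 (95% interval -0.55 to 0.22, limma adjusted p = 0.468). Without null replicate 1 it passed (-0.38, limma adjusted p = 0.0446), and without null replicate 2 its sign turned (0.04, limma adjusted p = 0.831). Probe set 105349_at read 419.3 and 289.4 in null arrays and 450.6 and 424.8 in wild-type arrays (-0.29, 95% interval -0.78 to 0.21), and 110610_at read 270.6 and 263.9 in null arrays and 301.9 and 164.7 in wild-type arrays (0.20, 95% interval -0.45 to 0.85). On the A chip, 99865_at was not tested, at 54.3 and 44.3 in null arrays and 50.4 and 37.5 in wild-type arrays. The intervals of 163130_at and 105349_at reach the smallest change seen for Bmpr1a (-0.52), and the difference between the receptors was not tested. The Bmpr1a promoter window (GRCm38.p6, chr14:34502497-34502796, minus strand, 5′ to 3′) is shown with the same motifs in capitals.
Bmpr1a: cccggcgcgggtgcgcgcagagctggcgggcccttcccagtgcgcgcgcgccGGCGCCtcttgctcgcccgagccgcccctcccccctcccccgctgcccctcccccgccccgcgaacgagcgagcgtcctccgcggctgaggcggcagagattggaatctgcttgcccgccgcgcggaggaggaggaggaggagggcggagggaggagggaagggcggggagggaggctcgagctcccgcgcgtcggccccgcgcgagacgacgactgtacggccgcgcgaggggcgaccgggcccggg
It holds 1 GGCGCC, and so does the Bmpr2 window.

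Of the antagonists, Sostdc1 was lower and Nog had no call. Sostdc1, a secreted inhibitor of BMP and Wnt signals made in placodes and follicle epithelium, read 1798.3 and 1720.8 in null arrays against 5084.1 and 4889.4 in wild-type arrays of the B chip. The arrays of each genotype were close together and the genotypes far apart, with a log2 fold change of -1.47 (SE 0.11, limma adjusted p = 0.000158). Nog, which encodes noggin, was dim and overlapped, at 75.2 and 98.6 in null arrays and 85.5 and 59.7 in wild-type arrays (log2 fold change 0.23, 95% interval -0.30 to 0.76, limma adjusted p = 0.454). Beside these values, of the hair follicle epithelium markers tested on the A chip Krt25, Krt27, Krt71 and Dlx3 were lower, and Shh had no call (limma adjusted p = 0.0711). The 7 listed markers on that chip summed to 213.3 and 260.7 in null arrays and 1437 and 1413 in wild-type arrays, and none read 0. The dermal papilla markers went both ways. Of the 4 tested on the A chip Vcan and Crabp1 were higher and 2 had no call, while Wif1, the 1 tested on the B chip, was lower, at 135.1 and 185.2 in null arrays against 2089.5 and 2047.8 in wild-type arrays (log2 fold change -3.32, limma adjusted p = 2.46e-05). Sox2 and Corin, not tested, also lay below wild type, at 44.2 and 32.2 in null arrays against 73.9 and 66.5, and at 21.2 and 16.5 against 80.0 and 54.4. The 6 on the A chip summed to 3768 and 3184 in null arrays and 2507 and 2560 in wild-type arrays, of which Vcan alone made up 2665 and 1988 in null arrays and 1245 and 1407 in wild-type arrays. The part of either cell type in the Sostdc1 and Nog values was not tested.

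The Id genes, all on the A chip, did not move alike. Id1 read 308.7 and 314.9 in null arrays against 667.1 and 608.3 in wild-type arrays, a log2 fold change of -1.001 (SE 0.13, limma adjusted p = 0.000271). Id3 read 284.1 and 284.8 in null arrays against 577.7 and 518.0 in wild-type arrays, a log2 fold change of -0.91 (SE 0.13, limma adjusted p = 0.000535). For both genes the null arrays were nearly equal and clearly below wild type. Id2, which has roles in differentiation and in immune cells beside those in epithelia, read 1451.2 and 1370.8 in null arrays and 1442.1 and 1374.6 in wild-type arrays. Its genotypes overlapped fully, and the log2 fold change was 0.00 (95% interval -0.25 to 0.25, limma adjusted p = 0.988). The intervals of Id1 (-1.29 to -0.72) and Id3 (-1.21 to -0.62) do not meet that of Id2, although the difference between the genes was not tested. Id4, the remaining member of the family and not among the 10 genes, read 91.4 and 88.8 in null arrays against 322.9 and 295.1 in wild-type arrays (log2 fold change -1.64, SE 0.16, limma adjusted p = 5.89e-05).

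Promoter windows of Id3 (GRCm38.p6, chr4:136143572-136143871, plus strand) and Id2 (chr12:25096043-25096342, minus strand) are set beside each other, 5′ to 3′, because Id3 was lower and Id2 had no call.
Id3: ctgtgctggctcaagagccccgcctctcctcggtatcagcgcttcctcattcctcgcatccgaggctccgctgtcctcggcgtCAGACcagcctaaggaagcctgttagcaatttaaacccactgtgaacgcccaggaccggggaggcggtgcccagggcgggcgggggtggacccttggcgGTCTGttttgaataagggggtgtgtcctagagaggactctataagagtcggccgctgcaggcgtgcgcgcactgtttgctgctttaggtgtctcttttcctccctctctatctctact
Id2: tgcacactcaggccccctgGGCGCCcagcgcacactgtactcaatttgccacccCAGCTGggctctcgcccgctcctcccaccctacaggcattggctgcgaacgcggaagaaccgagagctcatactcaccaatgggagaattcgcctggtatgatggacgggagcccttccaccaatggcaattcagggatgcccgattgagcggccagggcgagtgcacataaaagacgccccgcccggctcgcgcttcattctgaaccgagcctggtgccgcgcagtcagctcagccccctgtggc
The Id3 window holds 2 matches to CAGAC or its reverse complement, beginning 167 and 68 bases before the gene's start, and neither of the other motifs. The Id2 window holds 1 GGCGCC, beginning 231 bases before the start, and 1 E-box, beginning 196 bases before it. These are letters in a short window, not measured binding.

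**Figure D2:**
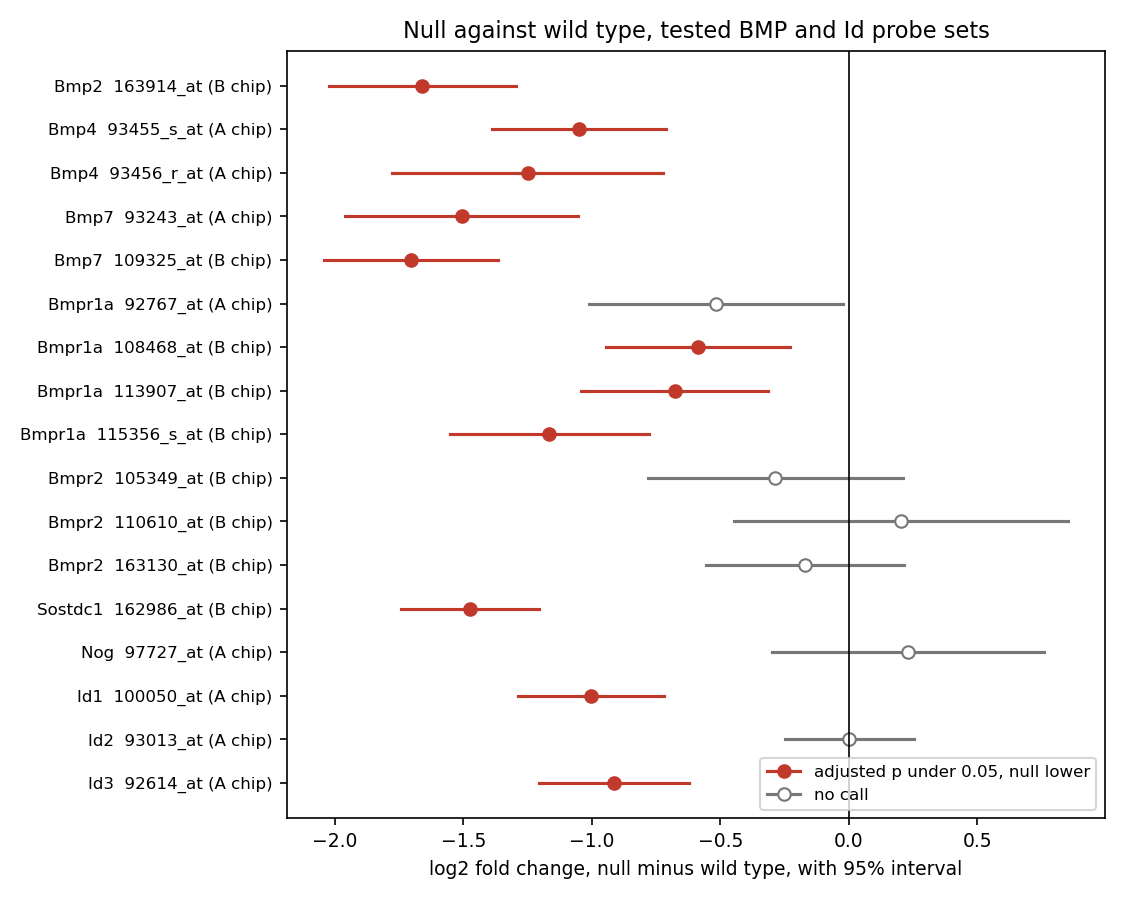
Log2 fold change, null minus wild type, of the 17 tested probe sets (points) with 95% intervals from limma (lines), filled where the null was lower by limma. Bmp2 and Bmp7 lie furthest left, and Id2 sits at 0 with an interval from -0.25 to 0.25.

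The wider BMP pathway was read from a list of 62 genes, the 10 included, each by its brightest tested probe set on a chip. Of the 52 other genes, 20 were tested on the A chip, where 7 were lower, 3 higher and 10 had no call. On the B chip 17 were tested, where 3 were lower, 3 higher and 11 had no call. Over all genes so read, 22.8% were lower and 22.4% higher on the A chip, and 16.0% lower and 16.1% higher on the B chip. The medians of these other genes were -0.22 and -0.19 on the log2 scale.

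Targets and partners held most of the falls. Dlx3 and Gata3, transcription factors of epidermis and follicle that BMP signals can induce, read 11.4 and 27.9 in null arrays against 404.9 and 362.4 in wild-type arrays, and 12.9 and 32.3 against 370.3 and 319.2. Their log2 fold changes were -3.65 and -3.39 (limma adjusted p = 8.24e-06 and 1.70e-05), and Gata3 on the B chip had -2.19 (limma adjusted p = 0.000793). On the A chip both genes reached the level for testing through wild type, and their null signals were near the offset (12.9). The size of change there moved with the offset. Dlx3 had -4.22 and Gata3 -3.90 with the offset at the 5th percentile, and -2.60 and -2.41 with it at the 40th. On the B chip, where the offset was 54.3, Gata3 read 110.0 and 69.3 in null arrays against 549.0 and 647.3 in wild-type arrays. Its change there moved too, to -2.59 with the offset at the 5th percentile and -1.58 with it at the 40th. Lef1, a nuclear effector of Wnt signalling in the follicle, fell by 1.03 on the A chip and fell by 1.23 on the B chip (limma adjusted p = 0.00140 and 0.00569). Msx2, below the level for testing, read 5.9 and 4.8 in null arrays against 95.6 and 90.1 in wild-type arrays, and passed in the fit with no filter (-2.53, limma adjusted p = 0.00109). Foxn1, also below that level, passed in that fit on the B chip (-1.41, limma adjusted p = 0.0213). It did not pass on the A chip (0.03, limma adjusted p = 0.956). Msx1 and Hey1 had values of -0.26 and -0.20 with no call. Of the E proteins, the partners of Id proteins, Tcf4 was lower on the A chip (-0.58, limma adjusted p = 0.00604), which did not pass without wild-type replicate 1 (0.0510), and had -0.19 on the B chip (limma adjusted p = 0.244), while Tcf3 and Tcf12 had 0.00 and -0.03. Dlx3, Msx2 and Foxn1 are also among the hair follicle markers.

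Both receptors that rose are known from blood vessels. Acvrl1, a type I receptor of endothelium, read 426.7 and 445.6 in null arrays against 279.7 and 228.1 in those of wild type on the A chip (log2 fold change 0.76, limma adjusted p = 0.00291) and had 0.64 on the B chip (limma adjusted p = 0.0247). Eng, which encodes the co-receptor endoglin and is also in the endothelial marker list, read 1991.9 and 2465.4 in null arrays against 1084.8 and 1186.5 in those of wild type on the A chip (0.96, limma adjusted p = 0.000446) and had 0.77 on the B chip (limma adjusted p = 0.0177). Both B-chip calls were lost without wild-type replicate 1 (limma adjusted p = 0.0631 for Acvrl1 and 0.0979 for Eng) and without wild-type replicate 2 (0.163 and 0.0754). The 7 endothelial markers on the A chip summed to 3940 and 4472 in null arrays and 2149 and 2312 in wild-type arrays, none at 0, and their part in the rise was not tested. Acvr2a, a type II receptor, was lower (-0.67, limma adjusted p = 0.0148), a call lost without null replicate 2 (-0.44, limma adjusted p = 0.0607) and without wild-type replicate 2 (0.0612).

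The remaining calls were among antagonists and Smads. Grem1 encodes the BMP antagonist gremlin. On the B chip it read 664.5 and 435.0 in null arrays against 49.9 and 133.3 in wild-type arrays. It was higher there (log2 fold change 2.08, SE 0.34, limma adjusted p = 0.00440). Grem1 reached the level for testing through the null arrays. It was not tested without null replicate 1, nor with the filter set higher. Over the alternatives in which it was tested, its log2 fold change ran from 1.47 to 2.52. Its A-chip probe set was too dim to be tested, at 24.0 and 40.2 in null arrays and 6.0 and 10 in wild-type arrays, and passed in the fit with no filter (1.09, limma adjusted p = 0.0281). Bambi, a decoy receptor that BMP signals induce, was lower (-0.78, limma adjusted p = 0.0127), but not without wild-type replicate 2 (0.112). Smad1, which carries the BMP signal, fell by 0.33 (limma adjusted p = 0.0475), and Smad7, an inhibitory Smad, was higher by 0.45 (limma adjusted p = 0.0382). The Smad1 call was lost without null replicate 2 (0.121), wild-type replicate 1 (0.0991) or wild-type replicate 2 (0.263), and that of Smad7 was lost when any 1 of the 4 arrays was left out (0.0750 to 0.156). Smad4 and Smad6 on the A chip and Smad5 on the B chip had values of -0.20, 0.05 and 0.16 with no call.

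**Figure D3:**
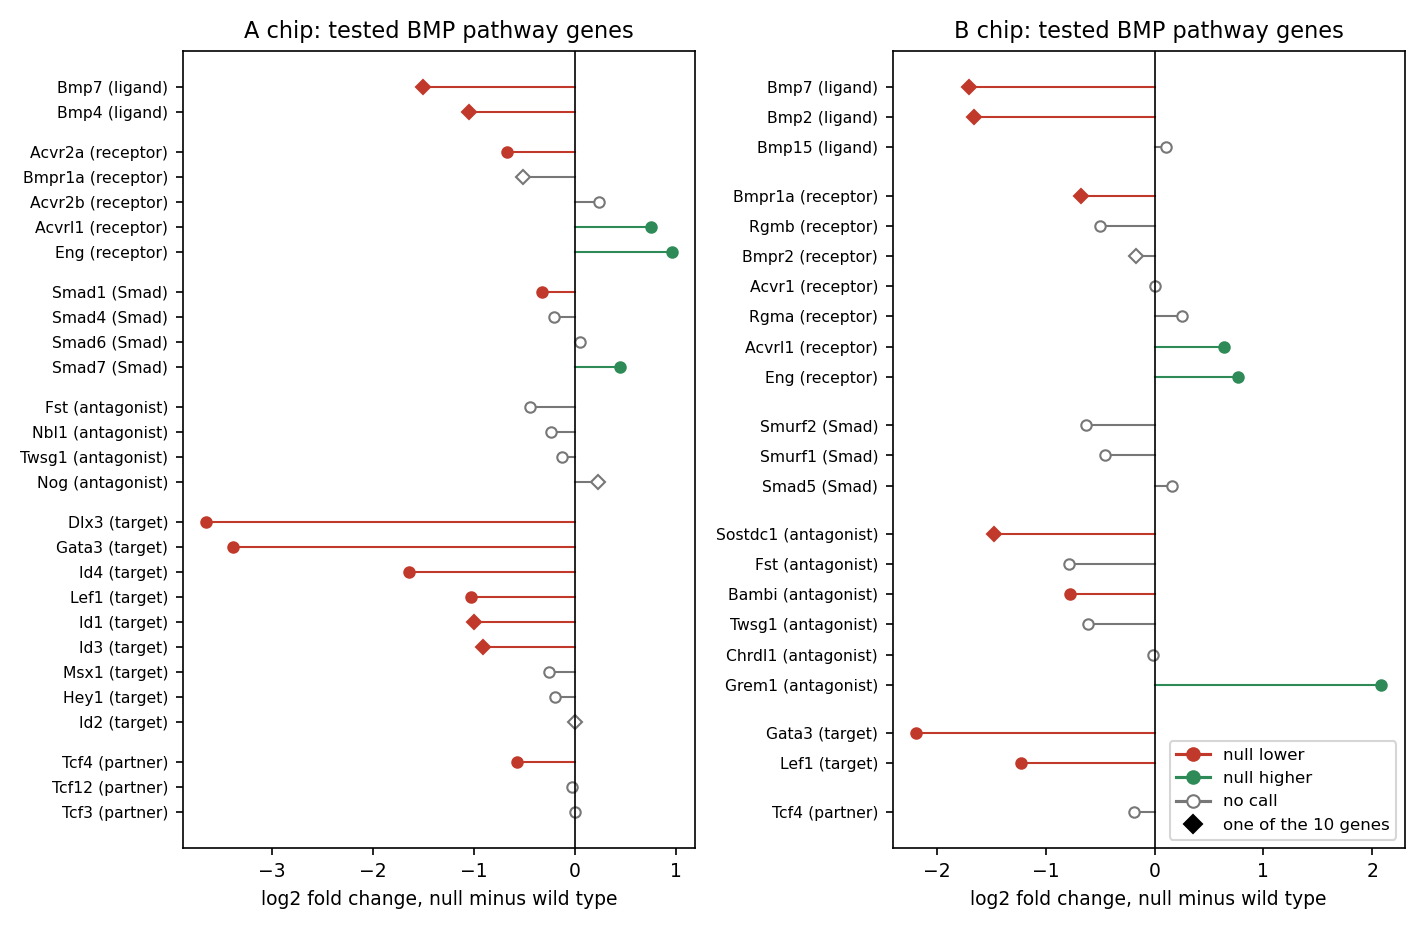
Log2 fold change, null minus wild type, of the tested BMP pathway genes by role on each chip, with diamonds for the 10 genes, filled symbols for limma calls and open symbols for no call. Dlx3 and Gata3 are the furthest left on the A chip, and Grem1, at 2.08, is the furthest right on the B chip.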

How the data were processed

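RNA from whole skin was labelled with biotin and hybridised to 8 single-colour arrays, 2 per genotype on each of 2 chips, grouped by sample title. The deposited values are linear intensities per probe set, made by the authors with MAS5 per the submitters' processing notes, version and detection calls not given in the sources used here. They had already been scaled: 2% trimmed means were 250.1 to 250.2 (A chip) and 500.1 (B chip). Each array was set to the same trimmed mean, an offset at the 20th percentile of the chip (12.9 and 54.3) was added, and log2 taken, which understates changes of dim genes. The 66 control probe sets per chip were left out, and probe sets with a mean log2 value above the 40th percentile were tested, 7453 and 7446. Each chip was fitted apart with limma 3.58.1 in R 4.3.3 (lmFit, eBayes with intensity trend, two-sided), adjusted by Benjamini-Hochberg over the chip. The script was tested on simulated data. With 2 embryos per group p-values rest on variance shared across probe sets, and the number of arrays limits precision. Signals of different probe sets are not comparable as levels.

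Probe sets were named by the platform annotation, and all 10 genes were found by gene identifier in RefSeq (GRCm38.p6) under the same symbol. Probe sets ending in _s_at or _r_at were designed under looser rules and can bind other transcripts. Promoter windows are RefSeq's, found for 5 of the 10 genes. The 10 genes, the pathway and marker lists and the tests were chosen with earlier results of these data known. Named genes are the 10, Trp63, every other pathway gene past the threshold (up to 6 per role and direction), and a few markers. Msx1, Msx2, Foxn1, Hey1, Tcf3, Tcf12, Smad4, Smad5, Smad6 and single markers were named after their values were seen. Alternatives covered scaling, offset, filter, variance trend, a replicate block and each array left out.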

Additional observations from a re-analysis of the deposited data

How the results depend on the processing

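Of the 17 tested probe sets of the 10 genes, every call for Bmp2, Bmp4, Bmp7, Sostdc1, Id1 and Id3 held under each alternative in which the probe set was tested. Those for Bmpr1a are given with their results. Id2 changed sign around 0, at -0.008 with median centring, -0.037 with quantile normalization, and -0.0383 to 0.0433 with 1 array left out, with no call in any of them. Bmpr2 changed sign with 1 array left out, from -0.383 to 0.0436 (163130_at) and from -0.15 to 0.55 (110610_at). With the filter at the 60th percentile 4 of the 12 A-chip probe sets were tested and 3 called lower, and 1 pathway gene was higher on the B chip. With 1 array left out, pathway genes on the B chip numbered 1 to 3 higher and 6 to 12 lower, with 1 higher without either wild-type array and 12 lower without null replicate 1. All probe sets of the A chip then numbered 1075 to 1579 higher and 1052 to 1797 lower, the lowest without wild-type replicate 2. Those of the B chip numbered 575 to 1244 higher and 544 to 1354 lower, the lowest also without wild-type replicate 2, with 603 and 572 without wild-type replicate 1. A lone array is then assumed to vary like the other group.

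The labels do not say whether the replicate numbers pair null with wild-type arrays. Deviations of same-numbered null and wild-type arrays correlated at 0.039 (A chip) and -0.046 (B chip), so no large shared deviation was seen. With the replicate number as a block, the 10 genes had 5 probe sets lower on chip A, 6 lower on chip B and 0 higher, pathway genes 10 lower and 3 higher on each chip, and all probe sets 1694 lower and 1674 higher (A chip) or 1182 and 1229 (B chip). The block ended the call for Smad1 (limma adjusted p = 0.0533), as did median centring (0.0635), quantile normalization (0.0607), no filter (0.0693) and no variance trend (0.103). No filter also ended that for Smad7 (0.0582). MAS5 detection calls were not used here, so dim probe sets are described only by their level.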
